A study of Arabidopsis thaliana with 8 samples.

Results

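The AP2/ERF proteins are a large plant family of transcription factors that share a DNA-binding domain named after APETALA2. The 45 loci described here are family members outside the close relatives of RAP2.9, the CBF cold factors and RAP2.12. They are ethylene response factors (ERFs) of groups IX and VIII, RAP2 factors, cytokinin response factors (CRFs), DREB2 and TINY factors, and RAV/TEM factors, which carry a B3 domain beside the AP2 domain. They were chosen by locus with earlier results of these data known, though the rule itself used no array values. Of the 45, 44 had a probe on the array. Of these, 37 were tested, since a probe counted only if 4 or more of the 8 arrays read it well above background. The other 7 with a probe were too dim, and DREB19 (AT2G38340) was not matched to a probe.

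RNA came from leaves of 4 samples of 35S::Rap2.9-GFP plants and 4 samples of Col-0 wild-type plants, all of the Col-0 accession, untreated and 54 days old. The transgene joins RAP2.9, a DREB-type AP2/ERF factor, to green fluorescent protein under the 35S promoter, a strong viral promoter active in most plant cells. The labels call the samples a transgenic line and biological replicates, and do not say whether a sample was 1 plant or a pool. The design sets leaf transcripts under RAP2.9 overexpression beside those of the wild type.

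Ethylene stabilises the factors EIN3 and EIL1, which switch on ERF1, and ERF1 with other group IX factors activates defence genes through the GCC box. Group VIII ERFs carry an EAR repression motif and act on the same kind of promoter. CRFs are a branch of the cytokinin response, DREB2 and TINY factors bind dehydration-responsive elements, and TEM1 and RAV2 delay flowering by repressing FT and gibberellin synthesis.

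Each array was hybridised with Cy3-labelled RNA of 1 sample, and levels are given as the log2 processed signal relative to the 75th percentile of the same array. Such levels compare arrays for 1 probe and do not rank genes. The share of probes well above background was 72.5% to 84.3% over the arrays, and transgenic replicate 1 had the most. RAP2.9 (AT4G06746) had 2 probes that gave opposite signs, 4.14 ± 0.15 (SE) and -1.77 ± 0.23 (SE) as log2 changes, and where they lie relative to the transgene is unknown. Of 25089 genes tested, 34.6% passed an adjusted p of 0.05 (limma, Benjamini-Hochberg over all genes), 18.6% as higher and 16.0% as lower in the transgenic leaves, with 4660 higher and 4025 lower genes. Of the 25089, 20268 had a locus name, and the rest were counted under the array's own name for the transcript or probe. Scaling by the median gave 3199 higher and 5016 lower genes.

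Mesophyll markers, which define leaf tissue, had a mean log2 level of 5.88 to 6.26 in transgenic and 5.62 to 5.99 in wild-type arrays, and 2 of 6 rose. All 5 xylem markers and all 4 guard cell markers rose, while over all genes 18.6% were higher and 16.0% lower. Their mean level was -2.13 to -1.56 in transgenic and -3.61 to -2.32 in wild-type arrays for xylem, and -0.73 to -0.61 against -1.31 to -1.03 for guard cells. Of 4 phloem markers 2 fell, and 0 of 3 trichome markers passed by limma, also at an unadjusted p of 0.05. The 2 tested root and 2 tested flower markers rose, as did the senescence marker SAG12, which ran from -5.68 to -0.69 in transgenic and -8.78 to -6.59 in wild-type arrays. SAG12 was well above background on 4 transgenic arrays but on 1 wild-type array, so it met the filter mainly through the transgenic arrays and its wild-type level is a reading near background. In whole leaves, fewer cells of a type and less RNA per cell cannot be told apart, and the part of these shifts in the results below was not tested.

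Among the 37 tested factors, 3 rose and 9 fell in the transgenic leaves, and 25 did not pass. The 12 that passed were 32.4% of those tested, close to the 34.6% of all genes, so passing the test was about as common among these factors as among genes at large. RAP2.4, CRF3 and TINY2 rose. EDF3, CRF4, CRF5, CRF6, DREB2C, RAV1, ERF105, ERF2 and RAP2.2 fell. The log2 changes ran from -1.14 for EDF3 to 1.14 for CRF3, and in this fit these were the 2 factors that changed 2-fold or more. With quantile normalization CRF3 was at 0.92 and CRF4 at -1.12, so which factors reached 2-fold depended on the scaling. CRF1 was at -1.07 in that setting without passing (adjusted p = 0.133). It was well above background on 0 of 4 transgenic arrays, so its size of change is uncertain. The median change of the 37 was -0.12, against 0.03 over all genes, and the median size of the change was 0.39, against 0.24.

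**Figure D1:**
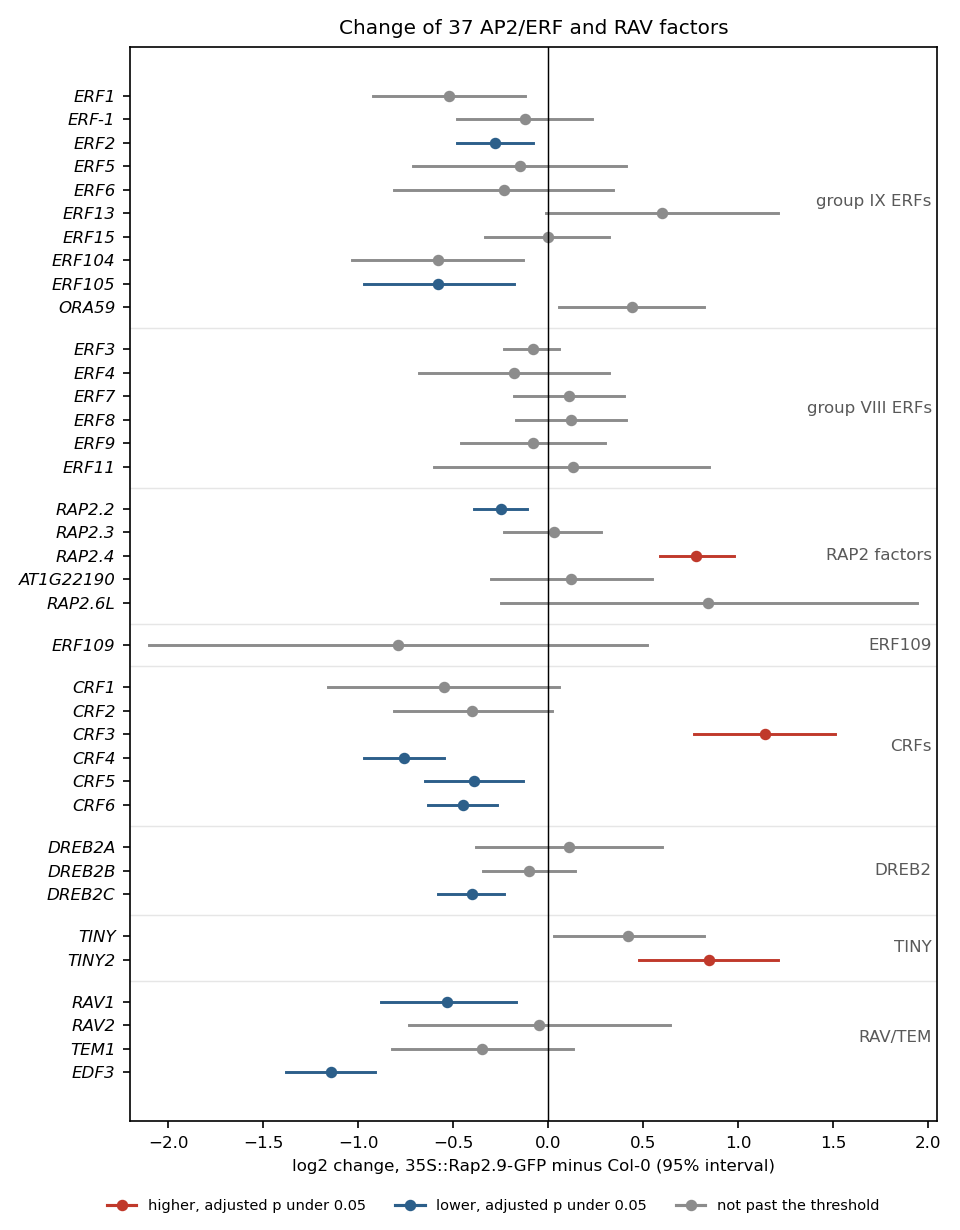
Log2 change (35S::Rap2.9-GFP minus Col-0) of the 37 tested factors by subgroup, each point with its 95% interval from the limma fit (n = 4 arrays per genotype). The 3 factors past the threshold as higher lie between 0.78 and 1.14 and the 9 as lower between -1.14 and -0.25, while the group VIII ERFs all lie between -0.18 and 0.13.

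For 13 of the 37 factors, 35.1%, all arrays of 1 genotype lay on the same side of the other genotype's arrays, against 36.7% of all genes. These 13 were all of the factors past the threshold except CRF5, with ERF1 and ERF104 added. The calls for RAP2.4, CRF3, TINY2, EDF3, CRF4, CRF6, DREB2C and RAP2.2 held in each of the 8 fits that left out 1 array. Without transgenic replicate 4 or without wild-type replicate 3, 5 factors were lower instead of 9, and over all genes 12% and 12.5% were lower in these fits, against 16.0%. With the normexp background correction, which adds an offset to every spot, RAP2.4 rose and CRF6 fell and the other 10 calls were lost. Calls over all genes also dropped, to 11.1% with normexp, and some lost factors kept the size of their change, such as ERF105 at -0.56 and RAV1 at -0.48.

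The RAV/TEM group held the factor that fell most. EDF3 (AT3G25730), an ethylene-responsive factor of this group, had log2 signals of -3.50, -3.48, -3.78 and -3.83 in transgenic replicates 1 to 4, against -2.59, -2.54, -2.38 and -2.50 in wild-type replicates 1 to 4. Every transgenic array lay under every wild-type array, by more than the whole range of either genotype. The level of EDF3 fell 2.21-fold (log2 change -1.14 ± 0.10, SE, adjusted p = 0.000226). The change was -1.17 on slide 1 and -1.12 on slide 2, each of which held 2 arrays of each genotype. With normexp the change was -0.86 and did not pass (adjusted p = 0.0845).

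RAV1 (AT1G13260), a growth repressor that also promotes leaf senescence, had log2 signals of 2.1, 1.83, 1.39 and 1.80 in transgenic replicates 1 to 4, against 2.16, 2.47, 2.39 and 2.2 in wild-type replicates. Transgenic replicate 1 came close to the lowest wild-type array, and transgenic replicate 3 was the lowest of all. RAV1 fell by 0.53 ± 0.15 (SE) on the log2 scale (adjusted p = 0.0327). That call held without transgenic replicate 1, transgenic replicate 3 or wild-type replicate 1, and was lost without each of the other 5 arrays, where the adjusted p reached 0.0805. It was also lost with slide as a block (adjusted p = 0.0519).

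TEM1 (AT1G25560) and RAV2 (AT1G68840), also called TEM2, are the flowering repressors of the group, and neither passed. TEM1 averaged 3.40 ± 0.33 in transgenic and 3.75 ± 0.30 in wild-type leaves (SD, n = 4 each), with a 95% interval of the change from -0.82 to 0.13. The interval for RAV2 ran from -0.73 to 0.64. RAV2 varied widely inside each genotype, from 2.48 to 3.45 in transgenic and from 2.43 to 3.51 in wild-type arrays. Its 3 probes gave changes of -0.05, -0.05 and 0.10.

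Among genes that TEM factors repress, the gibberellin synthesis gene GA3OX1 was the only 1 of 3 above the filter. GA3OX1 rose by 0.84 ± 0.26 (SE, adjusted p = 0.0401), but among the 8 fits with an array left out it kept that call only without transgenic replicate 3 (adjusted p = 0.0483) or wild-type replicate 2 (adjusted p = 0.0171). Leaving out any 1 of the other 6 arrays gave an adjusted p of 0.0553 to 0.0912. A second GA3OX1 probe stood at 0.68 (adjusted p over probes = 0.0558). FT and GA3OX2 were not tested.

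The CRFs moved both ways. All 6 were tested, of which 1 rose and 3 fell, beside 34.6% of all genes that passed, and their median log2 change was -0.42. CRF3 (AT5G53290), known for a role in lateral root growth in the cold, had log2 signals of -3.96, -4.29, -4.32 and -4.05 in transgenic replicates 1 to 4. In wild-type replicates 1 to 4 CRF3 had -5.50, -4.91, -5.56 and -5.21. All transgenic arrays lay above all wild-type arrays, and CRF3 rose 2.2-fold (log2 change 1.14 ± 0.16, SE, adjusted p = 0.00178). The change was 1.36 on slide 1 and 0.92 on slide 2, and with normexp it was 0.26 (adjusted p = 0.912). CRF3 was dim, with wild-type processed signals of 36.5 to 68.4 on arrays whose 75th percentiles were 1724 to 2150.

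CRF4 (AT4G27950), a cold-inducible member, went the other way. Its log2 signals were -4.91, -5.11, -5.10 and -5.10 in transgenic replicates 1 to 4, against -4.50, -4.32, -4.16 and -4.19 in wild-type replicates. Transgenic replicates 2 to 4 were nearly identical and all 4 lay under the wild-type range. CRF4 fell 1.69-fold (log2 change -0.76 ± 0.09, SE, adjusted p = 0.000824). The values within the slides were -0.77 and -0.75, and with normexp the change of -0.60 did not pass (adjusted p = 0.522).

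CRF6 (AT3G61630), which cytokinin induces and which delays leaf senescence, had log2 signals of -1.14, -1.02, -1.08 and -1.07 in transgenic replicates, against -0.84, -0.57, -0.54 and -0.55 in wild-type replicates. The transgenic arrays were tightly grouped, and wild-type replicate 1 was the wild-type array nearest to them. CRF6 fell by 0.45 ± 0.08 (SE) on the log2 scale (adjusted p = 0.00443), and by 0.52 with normexp (adjusted p = 0.00289). CRF5 (AT2G46310) had -2.40, -2.21, -2.18 and -2.30 in transgenic replicates, against -1.85, -2.19, -1.71 and -1.78 in wild-type replicates. Here the ranges touched, because wild-type replicate 2 lay just under the highest transgenic array. CRF5 fell by 0.39 ± 0.11 (SE, adjusted p = 0.0313), a call that held without transgenic replicate 2, transgenic replicate 3 or wild-type replicate 2. It was lost without each of the other 5 arrays, where the adjusted p reached 0.0829.

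CRF2 (AT4G23750), also known as a target of the auxin factor MONOPTEROS, had a change of -0.40 ± 0.18 (SE, adjusted p = 0.126), at -0.72 on slide 1 and -0.07 on slide 2. CRF1 (AT4G11140) was well above background on 0 of 4 transgenic and all 4 wild-type arrays. It thus met the filter through the wild-type arrays alone, its arrays overlapped and it did not pass (adjusted p = 0.145, 95% interval of the change -1.16 to 0.06). Its measured means were -6.71 in transgenic and -6.16 in wild-type leaves.

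Type-A response regulators are transcripts that cytokinin induces quickly and that damp its signal. Among the 9 above the filter, 2 rose and 3 fell, while 4 missed the threshold, beside 34.6% of all genes that passed. ARR17 fell by 1.3 ± 0.16 (SE, adjusted p = 0.000988) and ARR16 fell by 1.22 ± 0.12 (SE, adjusted p = 0.000386). ARR9 rose by 0.75 ± 0.11 (SE, adjusted p = 0.00181). Like the CRFs, these regulators included members past the threshold in either direction.

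**Figure D2:**
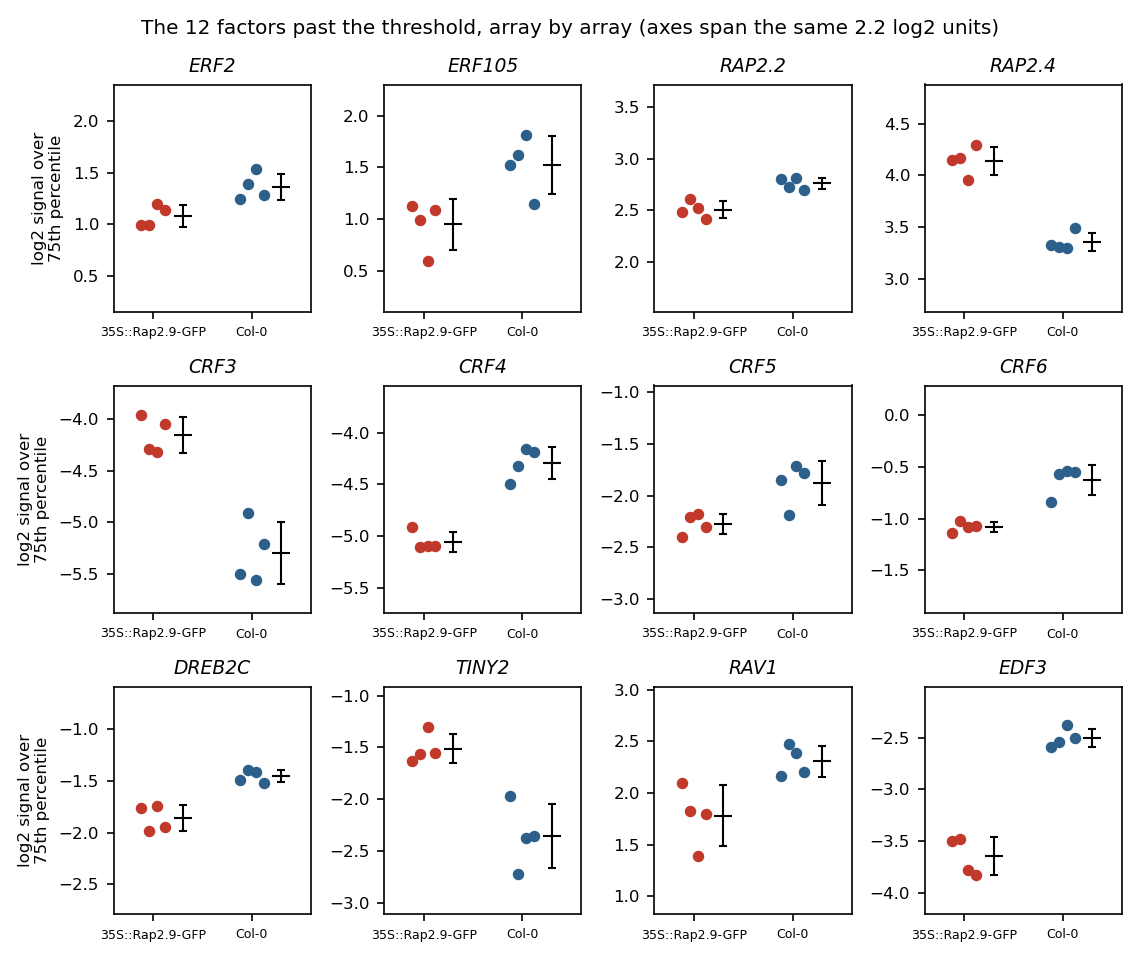
Level (log2 processed signal relative to the 75th percentile of its array) on each of the 4 arrays per genotype (points, replicates 1 to 4 from left to right) for the 12 factors past the threshold, with the mean and SD in black. Only CRF5 has a wild-type array, replicate 2 at -2.19, inside the transgenic range, while EDF3 and CRF3 show the widest gaps between genotypes.

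Of the RAP2 factors, 5 of 7 were tested, of which 1 rose and 1 fell, beside 34.6% of all genes that passed. RAP2.4 (AT1G78080), also called WIND1, responds to light, drought and wounding and promotes dedifferentiation of wounded tissue. RAP2.4 had log2 signals of 4.15, 4.17, 3.96 and 4.29 in transgenic replicates 1 to 4, against 3.33, 3.31, 3.30 and 3.49 in wild-type replicates. The groups were separated by more than the spread of either. RAP2.4 rose 1.72-fold (log2 change 0.78 ± 0.08, SE, adjusted p = 0.000516), with 0.91 on slide 1 and 0.66 on slide 2. With normexp the change was 0.83 (adjusted p = 0.00731).

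RAP2.4 was also the factor with the most probes, and all 6 passed as higher, with log2 changes of 0.76 to 1.05. They share the transcript and are not replicates of the genotype. Its near relative AT1G22190 did not pass, with a change of 0.12 ± 0.18 (SE, adjusted p = 0.625) and a 95% interval from -0.30 to 0.55.

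RAP2.2 (AT3G14230) and RAP2.3 (AT3G16770) are group VII factors, whose proteins are broken down when oxygen is present and which switch on fermentation genes in hypoxia. RAP2.2 had log2 signals of 2.48, 2.61, 2.52 and 2.42 in transgenic replicates 1 to 4, against 2.80, 2.73, 2.81 and 2.70 in wild-type replicates. The transgenic arrays lay just under the wild-type ones without overlap. RAP2.2 fell by 0.25 ± 0.06 (SE) on the log2 scale (adjusted p = 0.0155), and its other probe by 0.39 ± 0.06 (SE, adjusted p over probes = 0.00336). RAP2.3 averaged 3.38 ± 0.13 in transgenic and 3.36 ± 0.19 in wild-type leaves (SD, n = 4 each), and the 95% interval of its change was -0.23 to 0.28. With normexp RAP2.2 did not pass (adjusted p = 0.237).

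Of 11 tested hypoxia genes downstream of group VII factors, 3 rose, 3 fell and 5 did not pass, beside 34.6% of all genes that passed. The pyruvate decarboxylase gene PDC1 rose by 2.68 ± 0.18 (SE, adjusted p = 7.46e-05), while the sucrose synthase gene SUS1 fell by 1.76 ± 0.06 (SE, adjusted p = 6.66e-06) and SUS4 fell by 1.73 ± 0.09 (SE, adjusted p = 3.03e-05). With normexp PDC1 was at 1.26 and did not pass (adjusted p = 0.154).

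RAP2.6L (AT5G13330), linked to shoot regeneration, was well above background on 3 of 4 transgenic and 1 of 4 wild-type arrays, and its change of 0.84 ± 0.47 (SE) did not pass (adjusted p = 0.203). Its sign turned with normexp (-0.12), also without passing. RAP2.6 was above background on 1 array of each genotype, and RAP2.11, a factor of the potassium starvation response, on 0 of 8. They were not tested.

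TINY and TINY2 are DREB factors that bind both dehydration and ethylene response elements. TINY2 (AT5G11590) had log2 signals of -1.63, -1.56, -1.30 and -1.55 in transgenic replicates 1 to 4, against -1.97, -2.72, -2.38 and -2.36 in wild-type replicates. Wild-type replicate 1 was the closest of its group, and no array crossed over. TINY2 rose 1.8-fold (log2 change 0.85 ± 0.16, SE, adjusted p = 0.00569), with 0.62 on slide 1 and 1.07 on slide 2, and did not pass with normexp (0.62, adjusted p = 0.213). TINY (AT5G25810) had a change of 0.42 ± 0.17 (SE, adjusted p = 0.0877). Without wild-type replicate 1 TINY passed as higher (adjusted p = 0.0387), as it did with replicate as a block (adjusted p = 0.0253). TINY did not pass in the other 7 fits without an array (adjusted p up to 0.19) or with normexp (adjusted p = 0.587). HRD (AT2G36450), a factor tied to drought resistance when overexpressed, was above background on 1 array of each genotype and not tested.

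In the DREB2 group, 3 of 4 factors were tested and 1 fell, beside 34.6% of all genes that passed. DREB2C (AT2G40340), a heat-inducible member, had log2 signals of -1.76, -1.98, -1.74 and -1.95 in transgenic replicates 1 to 4, against -1.49, -1.39, -1.41 and -1.52 in wild-type replicates. The wild-type arrays lay close together and above every transgenic array. DREB2C fell by 0.40 ± 0.07 (SE, adjusted p = 0.00559), with -0.52 on slide 1 and -0.29 on slide 2, and did not pass with normexp (adjusted p = 0.185).

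DREB2A (AT5G05410), the drought and heat factor of the group, averaged 0.92 ± 0.41 in transgenic and 0.81 ± 0.20 in wild-type leaves (SD, n = 4 each). Its change did not pass, and the 95% interval ran from -0.38 to 0.60. Its 3 probes gave 0.11, 0.12 and 0.04. DREB2B (AT3G11020) had an interval from -0.34 to 0.14.

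Of 6 genes downstream of DREB2A, 4 fell, 0 rose and 2 did not pass by limma, beside 34.6% of all genes that passed. At an unadjusted limma p of 0.05, for which no share of all genes was counted, 4 were lower and 1 higher. The higher one was LEA7, named after its value was seen, at 2.33 ± 0.91 (SE, adjusted p = 0.0845). LEA14, a late embryogenesis abundant gene, fell by 3.70 ± 0.11 (SE, adjusted p = 3.2e-06), the dehydrin gene COR47 fell by 2.45 ± 0.10 (SE, adjusted p = 1.19e-05) and RD29A fell by 2.04 ± 0.10 (SE, adjusted p = 2.04e-05). RD29A and COR47 are also targets of the CBF cold factors.

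Of 10 tested group IX ERFs, 2 fell, 0 rose and 8 did not pass by limma, beside 34.6% of all genes that passed. At an unadjusted limma p of 0.05, 4 were lower and 1 higher, but the share of all genes at that level was not counted. Their median log2 change was -0.19. ERF105 (AT5G51190), a factor of the cold and chitin response, had log2 signals of 1.12, 0.99, 0.59 and 1.09 in transgenic replicates 1 to 4, against 1.52, 1.62, 1.81 and 1.14 in wild-type replicates. The groups nearly met at transgenic replicate 1 and wild-type replicate 4. ERF105 fell by 0.58 ± 0.17 (SE, adjusted p = 0.0348). The call held without transgenic replicate 1 or wild-type replicate 4 and was lost without each of the other 6 arrays, where the adjusted p reached 0.0827. The second ERF105 probe was at -0.53 ± 0.18 (SE) and did not pass (adjusted p over probes = 0.0602).

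ERF2 (AT5G47220), an activator of GCC-box genes, had log2 signals of 0.99, 0.99, 1.2 and 1.14 in transgenic replicates 1 to 4, against 1.24, 1.39, 1.53 and 1.28 in wild-type replicates. All transgenic arrays were lower, with transgenic replicate 3 close to wild-type replicate 1. ERF2 fell by 0.28 ± 0.09 (SE, adjusted p = 0.0409). The call held without transgenic replicate 3 or wild-type replicate 1 and was lost without each of the other 6 arrays, where the adjusted p reached 0.0916. With slide as a block it was lost too (adjusted p = 0.0626).

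ERF1 (AT3G23240), the direct target of EIN3, and ERF104 (AT5G61600), a substrate of the defence kinase MPK6, were close to the threshold and are named after their values were seen. ERF1 averaged -2.91 ± 0.27 in transgenic and -2.39 ± 0.26 in wild-type leaves (SD, n = 4 each), with an adjusted p of 0.0508. ERF104 averaged 1.11 ± 0.33 in transgenic and 1.70 ± 0.27 in wild-type leaves (SD, n = 4 each), with an adjusted p of 0.0521. For both, every transgenic array lay under every wild-type array. ERF1 passed as lower with quantile normalization (adjusted p = 0.0247) and without transgenic replicate 1 (adjusted p = 0.0371), and ERF104 passed with slide as a block (adjusted p = 0.0148). ERF1 did not pass with normexp (adjusted p = 0.344), with slide as a block (adjusted p = 0.074) or in the other 7 fits without an array. ERF104 did not pass with normexp (adjusted p = 0.279) or in any of the 8 fits without an array (adjusted p = 0.0519 to 0.113).

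The remaining group IX ERFs had log2 changes of -0.23 for ERF6, -0.15 for ERF5, -0.12 for ERF-1, 0.00 for ERF15, 0.44 for ORA59 and 0.60 for ERF13. None of these 6 passed. ORA59 (AT1G06160), which joins jasmonate and ethylene signals, averaged 1.06 ± 0.26 in transgenic and 0.61 ± 0.24 in wild-type leaves (SD, n = 4 each, adjusted p = 0.0739). ORA59 passed as higher without transgenic replicate 4 (adjusted p = 0.0357) and ERF13 without transgenic replicate 3 (adjusted p = 0.0433). Neither passed in its other 7 fits without an array, where the adjusted p reached 0.157 for ORA59 and 0.239 for ERF13. In the 13 other alternative fits ORA59 passed in 1 and ERF13 in 0. ERF14 was above background on 1 transgenic and 0 wild-type arrays and was not tested.

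Of 6 defence genes downstream of ERF1 and ORA59, 5 rose and 1 did not pass, beside 34.6% of all genes that passed. The plant defensin genes PDF1.2B, PDF1.3 and PDF1.2C rose by 3.57 ± 0.47 (SE, adjusted p = 0.00132), 3.49 ± 0.47 (SE, adjusted p = 0.00146) and 3.43 ± 0.47 (SE, adjusted p = 0.00158). The related defensin gene PDF1.2A rose by 2.78 ± 0.37 (SE, adjusted p = 0.00138), and the other gene that rose was HEL, at 1.15 ± 0.26 (SE, adjusted p = 0.0118). These defensins are nearly identical in sequence, so their probes may share signal. The count of 5 may thus stand for fewer separate measurements. The factors themselves had changes of -0.52 for ERF1 and 0.44 for ORA59, and neither passed.

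Of 11 genes of ethylene perception and signalling, 2 fell, 0 rose and 9 did not pass by limma, beside 34.6% of all genes that passed. At an unadjusted limma p of 0.05, 4 were lower and 1 higher, with no share of all genes counted at that level. The receptor gene ETR2 fell by 1.01 ± 0.17 (SE, adjusted p = 0.00371) and EBF2, which codes for an F-box protein that removes EIN3, fell by 0.53 ± 0.06 (SE, adjusted p = 0.000937). Both are transcripts that ethylene induces, but whether ethylene signalling differed between the genotypes was not tested. The receptor genes ETR1, ERS1, ERS2 and EIN4 did not pass, with log2 changes of 0.14, 0.15, 0.06 and 0.01. The other ETR2 probe was at -0.42 ± 0.58 (SE) and did not pass (adjusted p over probes = 0.607), and with normexp ETR2 did not pass (adjusted p = 0.371).

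**Figure D3:**
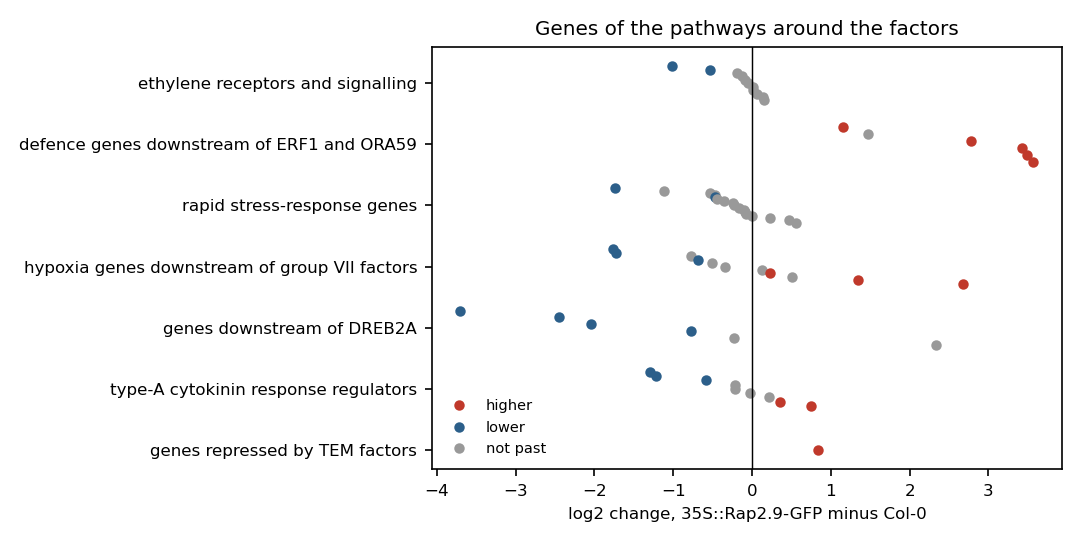
Log2 change (35S::Rap2.9-GFP minus Col-0) of each tested gene in 7 lists of genes that act upstream, downstream or beside the factors, coloured by the limma call. The defence genes downstream of ERF1 and ORA59 lie between 1.15 and 3.57, while the ethylene signalling genes other than ETR2 and EBF2 lie between -0.19 and 0.15.

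Of the 6 tested group VIII repressors 0 passed by limma, beside 34.6% of all genes that passed, and 0 had an unadjusted p under 0.05. Their log2 changes ran from -0.18 for ERF4 to 0.13 for ERF11. ERF3 (AT1G50640), the member with the smallest p, had log2 signals of 0.12, -0.05, 0.05 and 0.05 in transgenic replicates 1 to 4, against 0.09, 0.24, 0.05 and 0.13 in wild-type replicates. The groups overlapped (log2 change -0.08 ± 0.06, SE, adjusted p = 0.334), and the 95% interval was -0.23 to 0.06. ERF7, a repressor in abscisic acid responses, had an interval from -0.18 to 0.40, and ERF8 one from -0.17 to 0.41. The intervals of ERF4 (-0.68 to 0.32) and ERF11 (-0.60 to 0.85) were wider, so larger changes of these factors could have gone unseen. For ERF9, which represses the defensin gene PDF1.2, the interval was -0.46 to 0.30. ERF10 and ERF12 were above background on 0 of 8 arrays.

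The intervals show how far a change could have gone unseen. Of the 25 factors that did not pass, 8 had a 95% interval inside 0.5 log2 units either way, and the median width of the interval was 0.85. The widest was that of ERF109 (AT4G34410), also called RRTF1, a redox-responsive factor induced within minutes of wounding or strong light. ERF109 had log2 signals of -1.37, -1.03, -3.54 and -1.52 in transgenic replicates 1 to 4, against -1.51, -0.30, -1.21 and -1.26 in wild-type replicates. Transgenic replicate 3 lay far under the others, and the change of -0.79 ± 0.56 (SE) did not pass (adjusted p = 0.309). It was 0.08 on slide 1 and -1.67 on slide 2, which held transgenic replicate 3. ABR1, an abscisic acid repressor, was above background on 1 transgenic and 2 wild-type arrays and was not tested.

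**Figure D4:**
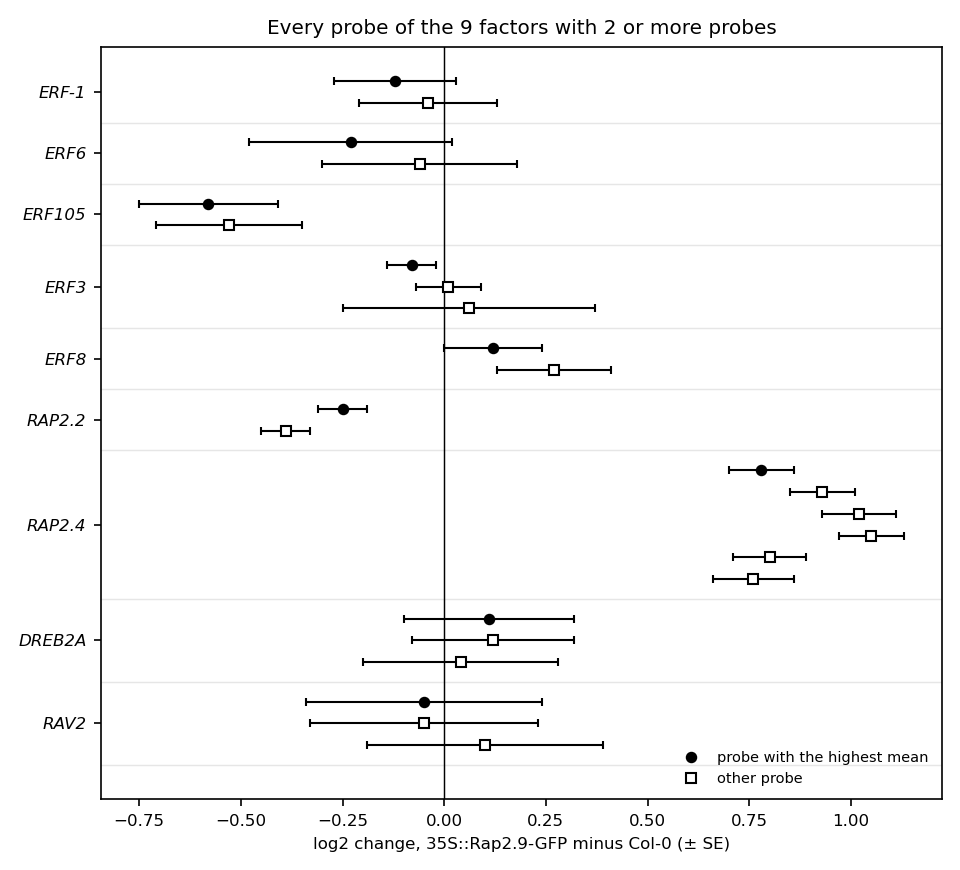
Log2 change (35S::Rap2.9-GFP minus Col-0) with its SE for every tested probe of the 9 factors that had 2 or more, with the probe used for the gene as a filled circle. All 6 RAP2.4 probes lie between 0.76 and 1.05 and both RAP2.2 probes under 0, while the 3 RAV2 and the 3 DREB2A probes lie near 0.

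Over the 53 tested probes of the 37 factors, 8 passed as higher and 10 as lower, together 34.0%, against 34.0% of all probes. For 8 of the 9 factors with several probes, every probe had the same call. The exception was ERF105.

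The factors varied more among replicates than most genes did. The median SD was 0.25 in transgenic and 0.21 in wild-type arrays, against 0.14 and 0.13 over all genes, and 30 of the 37 had a pooled SD above that of the median gene. ERF109, RAP2.6L, ERF11 and RAV2 had the widest spread of the 37, and RAP2.2 and ERF3 the narrowest. The SD of ERF11 was 0.53 in transgenic and 0.45 in wild-type arrays, and that of RAP2.2 was 0.08 and 0.06.

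Some arrays lay at the end of their genotype's range for many factors. Transgenic replicate 3 was the lowest transgenic array for 20 of the 37 factors, 54.1%, while it was the lowest for 24.5% of all genes. Wild-type replicate 1 was the lowest wild-type array for 20 factors, 54.1% against 25.4% of all genes, and wild-type replicate 3 the highest for 20, against 35.6%. Transgenic replicate 1 was the highest transgenic array for 16 factors, 43.2%, but for 38.9% of all genes too.

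By subgroup, transgenic replicate 3 was the lowest transgenic array for 10 of 16 ERFs of groups IX and VIII, 3 of 4 RAV/TEM factors and 7 of the 17 other factors. The median deviation of that array from its genotype's mean was -0.29, -0.40 and -0.04 log2 units in these subgroups. Wild-type replicate 1 was the lowest wild-type array for 9 of the 16 ERFs, all 4 RAV/TEM factors and 7 of the 17 others, with median deviations of -0.13, -0.28 and -0.04. Wild-type replicate 3 was the highest wild-type array for 13 of the 16 ERFs, 2 of the 4 RAV/TEM factors and 5 of the 17 others.

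Rapid stress-response genes, transcripts that touch, wounding or microbial signals raise within minutes, are given beside these values. Transgenic replicate 3 was the lowest transgenic array for 16 of these 17 genes, with a median deviation of -0.56 log2 units. The highest transgenic array was replicate 4 for 9 of the stress genes and replicate 1 for 6, whereas among the 37 factors it was replicate 4 for 8 and replicate 1 for 16. In the wild type, replicate 1 was the lowest for 11 and replicate 3 the highest for 11. Between genotypes, 2 of the 17 fell, 0 rose and 15 did not pass by limma, beside 34.6% of all genes that passed. At an unadjusted limma p of 0.05, 6 were lower and 1 higher, but the share of all genes at that level was not counted. TCH4, a touch-induced cell wall gene, fell by 1.74 ± 0.44 (SE, adjusted p = 0.0202), a call lost without wild-type replicate 3 (adjusted p = 0.0545) and with normexp (adjusted p = 0.0504). The kinase gene MKK9 fell by 0.47 ± 0.14 (SE, adjusted p = 0.037), which among the fits that left out an array held only without wild-type replicate 1 (adjusted p = 0.0204). Leaving out any 1 of the other 7 arrays gave MKK9 an adjusted p of 0.0563 to 0.0853. A second MKK9 probe was at -0.32 ± 0.16 (SE) and did not pass (adjusted p over probes = 0.167). With normexp MKK9 did not pass (adjusted p = 0.134). Whether these array positions bear on the differences between genotypes was not tested beyond leaving out each array.

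**Figure D5:**
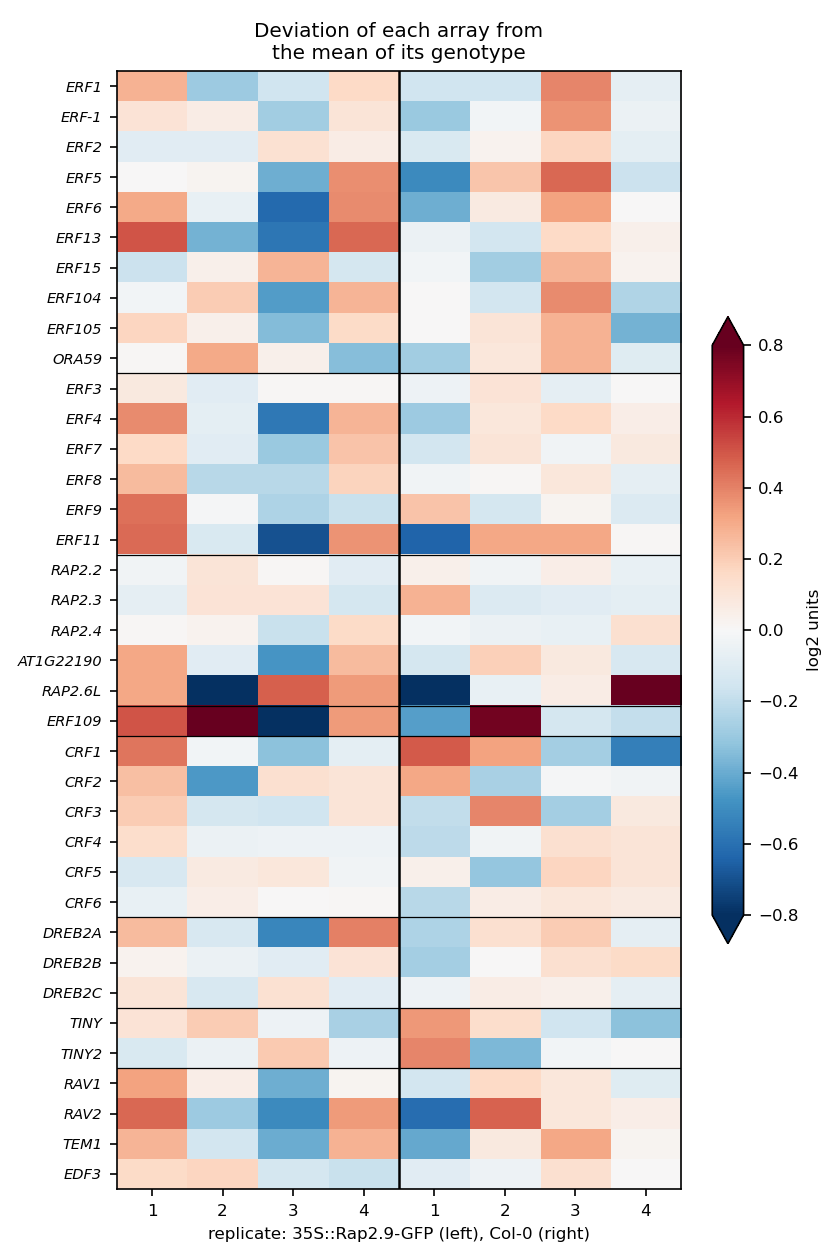
Deviation of each array from the mean of its genotype, in log2 units, for the 37 tested factors (rows, by subgroup) on the 4 arrays of 35S::Rap2.9-GFP (left) and the 4 of Col-0 (right), with the colour scale cut at 0.8. Transgenic replicate 3 is low (blue) for ERF6, ERF11, ERF4 and RAV2 and wild-type replicate 3 is high (red) for most group IX ERFs, while the rows of RAP2.2, ERF3 and DREB2C stay pale.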

How the data were processed

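Leaf RNA of 8 samples, 4 per genotype, was hybridised to 1-colour Agilent arrays of design 021169. Per the file headers, the deposited intensity of each spot was made with Agilent Feature Extraction 11.5.1.1, which subtracted background within an array, and was not normalised between arrays. Spots marked as outliers and 1417 control spots were left out. The log2 processed signal minus the array's 75th percentile was compared with limma 3.58.1 in R 4.3.3 (files read with data.table, version 1.17.8), two-sided, with Benjamini-Hochberg adjustment over 25089 genes, each represented by its brightest tested probe. Probes were matched by RefSeq transcript name to loci of the TAIR10.1 gene table, for 34348 of 43603 probes. The header names its build TAIR10, so no positions are given.

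The members and lists were chosen with earlier results of these data known. In each subgroup up to 4 members past the threshold, or the one with the smallest p, were given array by array, and up to 3 genes of each list were named. P-values measure the spread between these samples, and the number of arrays limits the precision. No array value of a member was missing in the fit.

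The authors' deposited value table holds log2 values that, set against the scanner values, ran in the same direction and matched quantile-normalised log2 signals centred on each probe's median, within 0.05 for 99.7% of probes on every array. Its column medians were -0.0146, -0.00404, -0.00252 and 0.00185 for transgenic replicates 1 to 4 and 0.00151, 0.0116, -0.00355 and 0.00411 for wild-type replicates 1 to 4. Flags for background and outliers, with other codes, were used as deposited. The fit was tested on simulated data with planted changes. Of 50 changes planted at each size, it recovered 31 at 0.5, 39 at 1, 41 at 2 and 49 at 4 log2 units. Of its 171 calls, 11 were false. Alternatives were other background correction (normexp on the median spot and background signals, offset 50), scaling, filter, probe choice, blocks, variance models and leaving out each array. Promoter and protein sequences were not analysed here.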

Additional observations from a re-analysis of the deposited data

Results flagged for a closer look

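In 7 of 108 sets of 4 arrays, 1 array stood apart from the others by a gap too large a share of the whole range for Dixon's criterion, which chance meets in about 1 of 20 sets. In transgenic leaves, replicate 3 was low for ERF-1 (2.26, others 2.6 to 2.65, gap 0.876 of the range). Replicate 2 was low for RAP2.6L (-7.24, others -5.80 to -5.63, gap 0.893), where that array was not well above background. Replicate 1 was high for CRF4 (-4.91, others -5.11 to -5.10, gap 0.945). In the wild type, replicate 1 was high for RAP2.3 (3.64, others 3.25 to 3.28, gap 0.916), low for CRF6 (-0.84, others -0.57 to -0.54, gap 0.912) and low for the F-box gene EBF2 (1.23, others 1.36 to 1.39, gap 0.841). Wild-type replicate 4 was high for RAP2.4 (3.49, others 3.30 to 3.33, gap 0.835). The calls of CRF4, CRF6, RAP2.4 and EBF2 held without these arrays.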

How the results depend on the processing

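Of the 37 factors, 10 lost their call in at least 1 of the 21 alternative fits, 6 gained one, and no called change reversed. With normexp 1285 genes were higher and 1495 lower, 1 factor was higher and 1 lower, 1 member probe was lower, and 3 factors did not overlap between genotypes, beside 19.3% of all genes without overlap in that setting. With no filter on dim probes 5 factors and 6 of their probes were lower, and over all genes 9.1% were lower, against 16.0% in the main fit. When 1 array was left out, 5 to 8 factors and 6 to 10 of their probes were lower, beside 12% to 16% of all genes. In these fits 3 to 4 factors were higher, beside 3525 to 4342 genes, against 4660 genes in the main fit. The deviations of same-numbered arrays correlated at 0.155, -0.0923, -0.323 and 0.275 for replicates 1 to 4, and only replicate 4 matched its own number best. With so few arrays, these values cannot decide whether same-numbered samples were paired, and the main fit did not pair them. With the replicate block 4021 genes were higher and 2971 lower, with 4 factors higher and 7 lower, and with slide added to it 2762 genes were higher, 1875 lower, and 4 factors and 4 member probes were lower. The cause of these shifts was not tested. Factors near background, such as CRF1 and RAP2.6L, are limited by signal.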

Other observations

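In the gene table, ERF6 lies next to ERF-1 and ERF12 next to ERF11. ERF6 and ERF-1 had log2 changes of -0.23 and -0.12 and neither passed, and ERF11 had 0.13 while ERF12 was above background on 0 of 8 arrays.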
